A study of Mus musculus with 10 samples.

Results

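The genes described here are 10 members of the YAP-TEAD pathway and its targets: Yap1, Wwtr1, Tead1, Cyr61, Ctgf, Ankrd1, Amotl2, Ajuba, Lats2 and Axl. They were matched by gene symbol, with Cyr61 and Ctgf under their older names (now Ccn1 and Ccn2), and all 10 were found among the 31053 genes of the count matrices. Droplet single-cell RNA-seq had been run on sorted epithelial (EpCAM+) lung cells of 8 week old mice of both sexes that carry Cre under the promoter of Sftpc, a surfactant gene of alveolar type 2 (AT2) cells. In Sftpc-CreERT2;R26R-Confetti lungs, Cre marks wildtype cells with RFP or YFP (1 library of each colour, here called Confetti). In Sftpc-CreERT2;Red2Kras lungs, RFP+ cells are mutant and YFP+ cells are their wildtype neighbours, and these were taken 4 days and 2 weeks after tamoxifen (2 libraries for each colour and time, replicates 1 and 2). All groups received tamoxifen, and each library pooled lungs of more than 1 mouse. The methods count Confetti as a single preparation from which both colours were sorted, so its 2 libraries may share animals. The labels give no time for the Confetti libraries. The study's methods give 2 weeks, so the 4 day groups also differ from Confetti in time.

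YAP (Yap1) and TAZ (Wwtr1) are transcriptional coactivators that bind DNA through TEAD factors such as TEAD1. The Hippo kinase cascade, in which LATS2 is the last kinase, phosphorylates YAP and TAZ and keeps them out of the nucleus, whereas stretch, spreading and injury favour their entry. In the alveolus YAP and TAZ are known for their part in regeneration after injury and in the passage of AT2 cells toward the flat alveolar type 1 fate. Because this regulation acts largely on protein, the RNA levels of Yap1 and Wwtr1 do not report their activity, and target genes are commonly read in their place.

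The promoters of the members were examined for GGAATG, a core sequence bound by TEAD factors, or its reverse complement CATTCC, in the 250 bases before each start site (RefSeq, GRCm38.p6). A promoter sequence was matched for 8 of the 10 members, all but Ctgf and Tead1. The sequence was found in 7 of these 8 members, the other being Lats2, against 14.4% of 27025 mouse genes. Its first base lay 141 bases before the start site in Yap1, 136 and 170 in the alternative starts of Wwtr1, and 233 in Axl. The windows of Cyr61 (chr3:145649986-145650235, minus strand), Ankrd1 (chr19:36119845-36120094, minus strand), Amotl2 (chr9:102717554-102717803, plus strand) and Ajuba (chr14:54577662-54577911, minus strand) are shown as examples. They are written 5′ to 3′ along the gene with GGAATG or CATTCC in capitals.
Cyr61: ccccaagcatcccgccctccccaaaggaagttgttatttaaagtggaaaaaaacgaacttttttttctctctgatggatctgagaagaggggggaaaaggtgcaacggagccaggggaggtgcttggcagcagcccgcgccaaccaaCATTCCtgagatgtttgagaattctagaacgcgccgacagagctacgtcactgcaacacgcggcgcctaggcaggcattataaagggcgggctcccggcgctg
Ankrd1: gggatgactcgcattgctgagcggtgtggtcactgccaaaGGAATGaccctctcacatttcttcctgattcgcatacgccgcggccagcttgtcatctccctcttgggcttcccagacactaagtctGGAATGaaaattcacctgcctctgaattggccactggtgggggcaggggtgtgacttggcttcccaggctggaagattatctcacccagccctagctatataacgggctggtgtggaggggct
Amotl2: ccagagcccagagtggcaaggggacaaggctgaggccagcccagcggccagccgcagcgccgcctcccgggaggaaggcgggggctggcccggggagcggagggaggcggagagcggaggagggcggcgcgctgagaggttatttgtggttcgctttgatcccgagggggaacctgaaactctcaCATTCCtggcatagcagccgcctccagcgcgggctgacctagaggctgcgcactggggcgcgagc
Ajuba: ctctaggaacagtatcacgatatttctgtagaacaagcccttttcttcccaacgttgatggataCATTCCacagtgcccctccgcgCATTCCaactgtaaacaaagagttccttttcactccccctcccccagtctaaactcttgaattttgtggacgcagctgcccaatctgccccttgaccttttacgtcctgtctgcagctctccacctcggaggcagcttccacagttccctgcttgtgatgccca
Matches lay 103 bases before the start in Cyr61, 210 and 123 in Ankrd1, 65 in Amotl2, and 186 and 164 in Ajuba. Neither TGANTCA, an AP-1 sequence, nor a CArG box, the SRF sequence, was present in any member's window. Those occurred in 7.82% and 1.62% of all genes. A match describes only the letters in these windows.

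The 10 libraries held 42012 barcodes, of which 32698 passed the filters on genes, UMIs and mitochondrial share, and 29573 of these were alveolar cells (1008 to 4223 per library, with 7336824 to 71490396 UMIs). Levels are UMIs summed over the alveolar cells of a library and given as CPM, the UMIs out of 1000000, after TMM scaling. Sums of marker lists, cell states and cell types are given as unscaled CPM, the share of UMIs without TMM scaling. Cells are not treated as replicates. The 8 AT2 markers made up 98328 to 249129 unscaled CPM. Mesenchymal markers summed to 0.108 to 2.95, immune markers to 2.43 to 18.7 and endothelial markers to 16.3 to 39.6 unscaled CPM. Libraries stood apart in state and in sex. The replicates of the 4 day groups differed in state: 89.8% of cells in RFP+ replicate 1 were AT2-like against 2.59% in RFP+ replicate 2, and 94.9% against 1.19% in the YFP+ libraries. The RFP+ libraries of 2 weeks also differed, with 49.2% primed AT2-like, 19.97% cycling and 2.76% unnamed cells in replicate 1 against 2.45%, 4.47% and 54.0% in replicate 2. The sex of the pooled mice also differed, since Xist was at 749 and 739 unscaled CPM in Confetti, 99.6 to 590 in the 4 libraries numbered 1 and 0.216 to 0.488 in those numbered 2. Ddx3y, a Y-linked gene, was at 0 in Confetti and at 13.5 to 45.5 in every Red2Kras library, so sex and genotype cannot be told apart in comparisons with Confetti. At most 11 cell barcodes were shared by any pair of libraries.

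The coactivators showed small differences, in opposite directions. Yap1 (chr9:7931999-8004596, minus strand, GRCm38) was at 30.1 and 29.8 CPM in Confetti, 25.4 and 23.0 in RFP+ cells at 4 days, 30.2 and 20.1 in YFP+ cells at 4 days, 22.0 and 15.8 in RFP+ cells at 2 weeks and 24.4 and 20.1 in YFP+ cells at 2 weeks. Both Confetti libraries thus lay above both libraries of either colour at 2 weeks, while the colours overlapped. Wwtr1 (chr3:57455649-57575910, minus strand) was at 24.9 and 24.7 CPM in Confetti, the lowest of all libraries, and at 27.0 and 37.5, 29.99 and 34.8, 30.5 and 40.5, and 37.4 and 32.5 in the Red2Kras groups in the same order. Against Confetti, the log2 fold change in RFP+ cells at 2 weeks was -0.66 ± 0.29 (SE) for Yap1 (adjusted p = 0.160) and 0.52 ± 0.27 for Wwtr1 (adjusted p = 0.224), and neither passed the threshold.

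Tead1 (chr7:112679318-112906807, plus strand), the DNA-binding partner, varied little between groups. Its level was 32.1 and 35.8 CPM in Confetti, 31.3 and 29.6 in RFP+ cells at 4 days, 36.0 and 23.0 in YFP+ cells at 4 days, 29.5 and 32.1 in RFP+ cells at 2 weeks and 28.7 and 24.3 in YFP+ cells at 2 weeks. The RFP+ libraries at 2 weeks overlapped Confetti (log2 fold change -0.14 ± 0.27, adjusted p = 0.753), and the sign turned to 0.07 when each cell was thinned to 2000 UMIs.

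Ctgf (chr10:24595442-24598683, plus strand), a secreted matricellular protein and a widely used YAP readout, was higher in mutant cells at 2 weeks than in Confetti. It was at 1.12 and 0.81 CPM in Confetti, 6.50 and 2.27 in RFP+ cells at 4 days, 3.58 and 1.20 in YFP+ cells at 4 days, 17.1 and 15.8 in RFP+ cells at 2 weeks and 5.67 and 5.28 in YFP+ cells at 2 weeks. The groups at 2 weeks did not overlap with each other or with Confetti. Of the 10 members, only Ctgf passed the test for RFP+ cells at 2 weeks against Confetti (log2 fold change 4.11 ± 0.65, edgeR quasi-likelihood test, adjusted p = 0.0349). The spread in this test came from the pairs of Red2Kras libraries, and none was measured between Confetti libraries. The call rests on few libraries: adjusted p was 0.112 and 0.172 without Confetti RFP+ or YFP+, 0.0511 and 0.156 without replicate 1 or 2 of RFP+ cells at 2 weeks, and 0.0510 without replicate 1 of YFP+ cells at 2 weeks. Without 1 cluster of 389 cells (described with the cell states), 359 of them in replicate 1 of RFP+ cells at 2 weeks, the log2 fold change was 3.62 (adjusted p = 0.0669) and edgeR called 5 of 13714 genes, a setting chosen after seeing the data. With all filtered cells summed, where edgeR called 0 of 15133 genes, the log2 fold change was 2.32 (adjusted p = 0.246). Mesenchymal cells, which were set aside, held Ctgf at 287 unscaled CPM against 10.3 in alveolar cells. The sum of 7 mesenchymal markers in the alveolar cells was 0.76 and 2.95 unscaled CPM in RFP+ cells at 2 weeks, the latter the highest of all libraries, against 0.13 and 1.13 in Confetti and 0.11 to 0.28 in the other 6 libraries, and its part in the Ctgf result was not tested. The immediate-early and heat-shock sums given with Cyr61 were also higher in both RFP+ libraries of 2 weeks than in Confetti. Without the clusters led by stress genes the log2 fold change of Ctgf was 4.46 (adjusted p = 0.0188).

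Among the other comparisons of Ctgf, none passed with edgeR, and DESeq2 called it over both times (adjusted p = 0.0243), in RFP+ cells at 4 days against Confetti (0.0359) and in YFP+ cells at 2 weeks against Confetti (0.0208). The log2 fold change was 1.58 ± 0.57 for RFP+ against YFP+ cells at 2 weeks (adjusted p = 0.252) and 1.28 ± 0.39 over both times (adjusted p = 0.119). Against Confetti it was 2.24 ± 0.63 in RFP+ cells at 4 days (adjusted p = 0.489) and 2.52 ± 0.63 in YFP+ cells at 2 weeks (adjusted p = 0.766). Between 4 days and 2 weeks in RFP+ cells it was 1.87 ± 0.57 (adjusted p = 0.412).

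Cyr61 (chr3:145646976-145649981, minus strand), the secreted relative of Ctgf, differed between replicates and between colours. It was at 42.3 and 40.3 CPM in Confetti, 81.2 and 50.6 in RFP+ cells at 4 days, 48.6 and 23.1 in YFP+ cells at 4 days, 203 and 93.6 in RFP+ cells at 2 weeks and 107 and 30.4 in YFP+ cells at 2 weeks. Replicate 1 was the higher of the pair in all 4 Red2Kras groups, and the RFP+ library was above the YFP+ library of the same time and replicate number in all 4 cases. The log2 fold change of RFP+ cells at 2 weeks against Confetti was 1.84 ± 0.65 (adjusted p = 0.106), and that of RFP+ against YFP+ cells over both times was 0.98 ± 0.43 (adjusted p = 0.230), which passed the threshold with the replicate number as a block. Lists of dissociation-sensitive genes moved with it over the libraries, with Pearson's r of log2 levels at 0.920 for immediate-early and 0.895 for heat-shock genes. For Ctgf r was 0.702 and 0.768, but its replicates at 2 weeks differed little. They were at 17.1 and 15.8 CPM in RFP+ and 5.67 and 5.28 in YFP+ cells. The 13 immediate-early genes (such as Fos, Junb and Egr1) summed to 7599 and 7662 unscaled CPM in the replicate 1 libraries of RFP+ and YFP+ cells at 2 weeks, 4383 and 2745 in replicate 2, and 2822 and 3062 in Confetti. The 9 heat-shock genes (such as Hspa1a) summed to 7911 and 9590, to 4499 and 2705, and to 2095 and 2037 in the same libraries. Their part in the Cyr61 result was not tested. Without the clusters led by stress genes the log2 fold change against Confetti was 1.89 (adjusted p = 0.123).

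**Figure D1:**
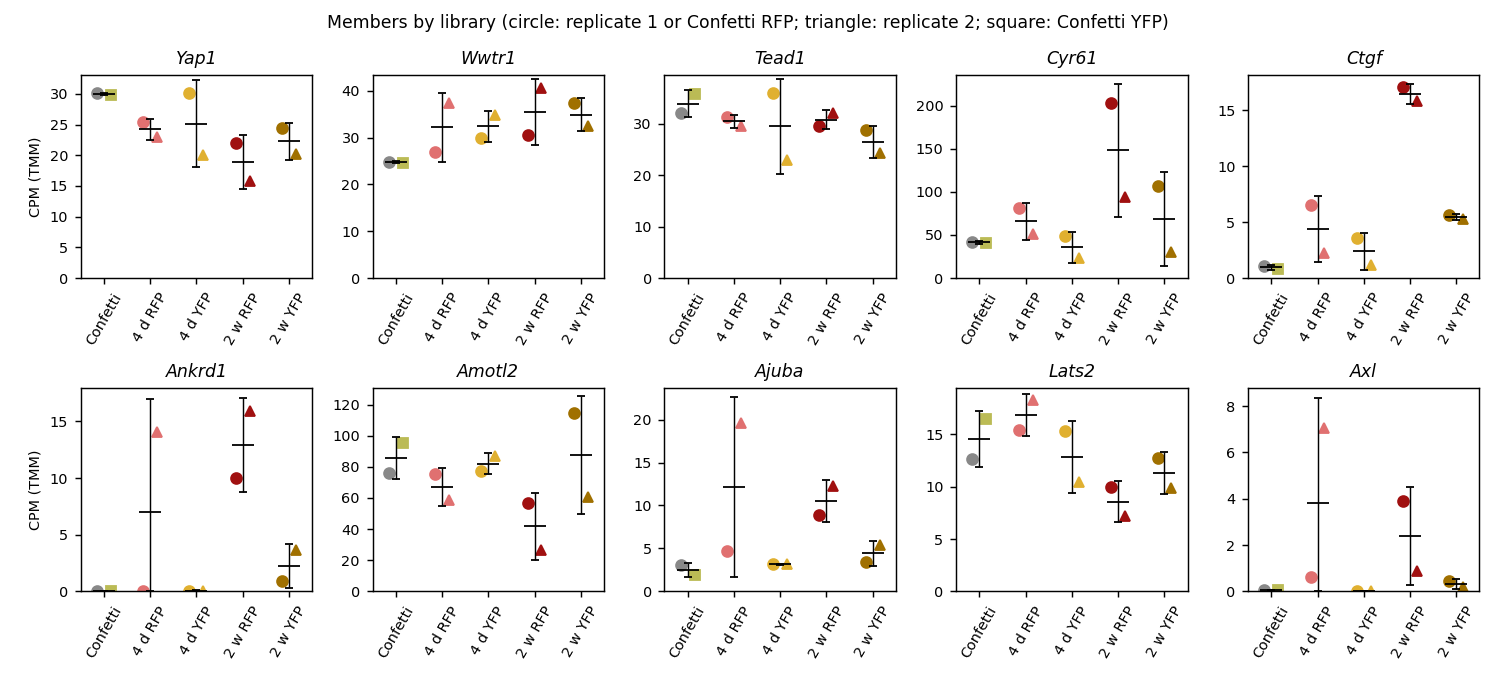
Levels of the 10 members in each library, as CPM after TMM scaling over alveolar cells, with 1 point per library, 1 panel per gene, and the group mean and SD as lines. Ctgf sits at 15.8 and 17.1 in RFP+ cells at 2 weeks and at most at 6.50 elsewhere, whereas Tead1 stays between 23.0 and 36.0.

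Ankrd1 (chr19:36111961-36120099, minus strand), which encodes a stretch-responsive ankyrin repeat protein of the nucleus and sarcomere, had 0 or 1 UMI in 5 of the 10 libraries. It had 0 UMIs in both Confetti libraries, in replicate 1 of RFP+ cells at 4 days and in replicate 1 of YFP+ cells at 4 days, and 1 UMI in replicate 2 of the latter. Replicate 2 of RFP+ cells at 4 days had 118 UMIs (14.1 CPM). RFP+ cells at 2 weeks had 749 and 631 UMIs (10.0 and 15.9 CPM), and YFP+ cells at 2 weeks had 23 and 22 (0.89 and 3.63 CPM). Set against the floor of 3 counts over both Confetti libraries (0.0969 CPM), the pooled level was at least 124-fold higher in RFP+ cells at 2 weeks, at least 44.1-fold higher in RFP+ cells at 4 days, a level that rests on replicate 2 alone, and at least 14.6-fold higher in YFP+ cells at 2 weeks (9.21 and 37.5 for its replicates on their own). Its adjusted p for RFP+ cells at 2 weeks against Confetti was 0.0658, which misses the threshold, and that for RFP+ against YFP+ cells over both times was 0.146. Without replicate 1 of RFP+ cells at 4 days, the latter was 0.0230.

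Axl (chr7:25757273-25788705, minus strand), a receptor tyrosine kinase, was found mainly in RFP+ libraries. It had 1 UMI in each Confetti library, 12 and 59 in RFP+ cells at 4 days, 0 and 0 in YFP+ cells at 4 days, 291 and 35 in RFP+ cells at 2 weeks and 12 and 1 in YFP+ cells at 2 weeks, or 0.62, 7.04, 3.89 and 0.88 CPM in the RFP+ libraries in that order. All 4 RFP+ libraries lay above every YFP+ and Confetti library in CPM, but the direction by colour over both times turned when all filtered cells (edgeR adjusted p = 0.918) or all barcodes (0.924) were summed, immune cells included, and with alveolar cells chosen at clustering resolution 1.5 (0.981). The ratio of pooled levels to Confetti, whose 2 UMIs set its width, was 44.0 in RFP+ cells at 2 weeks (95% interval 12.1 to 365, counting error only) and 39.8 at 4 days (10.6 to 335). Both depend on the library: replicates 1 and 2 on their own gave 60.1 and 13.6 at 2 weeks and 9.66 and 109 at 4 days. Adjusted p was 0.0878 for RFP+ cells at 2 weeks against Confetti and 0.105 for RFP+ against YFP+ cells over both times. Axl is also an immune gene, at 295 unscaled CPM in the 2427 immune cells that were set aside, against 1.82 in alveolar cells. The immune marker sum was 8.98 and 12.7 unscaled CPM in the RFP+ libraries at 2 weeks, 2.80 and 18.7 in those at 4 days, 7.95 and 10.6 in YFP+ libraries at 2 weeks, 2.43 and 5.62 in those at 4 days and 2.70 and 7.77 in Confetti. Replicate 2 of YFP+ cells at 2 weeks lay above replicate 1 of RFP+ cells in this sum. Its Axl level was 0.17 CPM, from 1 UMI and below the floor of 3 counts, against 3.89 CPM. The 4 day replicate 2, highest in Axl, was thus also highest of all libraries in this sum, and its part in the Axl result was not tested.

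Another 3 members act back on the Hippo pathway, and they did not move together. Ajuba (chr14:54567472-54577558, minus strand), a LIM protein that binds and restrains LATS kinases, was at 3.04 and 1.88 CPM in Confetti, 4.73 and 19.6 in RFP+ cells at 4 days, 3.19 and 3.13 in YFP+ cells at 4 days, 8.84 and 12.3 in RFP+ cells at 2 weeks and 3.42 and 5.45 in YFP+ cells at 2 weeks. RFP+ libraries lay above YFP+ libraries at both times. The log2 fold change of RFP+ cells at 2 weeks against Confetti was 2.14 ± 0.62 (adjusted p = 0.0691), and that of RFP+ against YFP+ cells was 1.58 ± 0.42 over both times (adjusted p = 0.0953, past the threshold with the replicate number as a block) and 1.92 ± 0.62 at 4 days (adjusted p = 0.778). Replicate 2 carried most of the 4 day difference. In RFP+ cells at 4 days against Confetti the value was 2.32 ± 0.63 (adjusted p = 0.475).

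Amotl2 (chr9:102716672-102733418, plus strand), an angiomotin family scaffold that retains YAP in the cytoplasm and is itself a YAP target, ran the other way. It was at 75.9 and 95.1 CPM in Confetti, 75.6 and 58.4 in RFP+ cells at 4 days, 77.1 and 86.9 in YFP+ cells at 4 days, 56.8 and 26.5 in RFP+ cells at 2 weeks and 114 and 60.7 in YFP+ cells at 2 weeks. RFP+ libraries lay below YFP+ libraries at both times, by narrow margins. The endothelial marker sum also lay lower in RFP+ libraries, at 17.3 and 20.3 against 22.4 and 39.4 unscaled CPM at 4 days and at 23.1 and 16.3 against 39.6 and 37.9 at 2 weeks, and endothelial cells held Amotl2 at 341 against 68.2 in alveolar cells; its part in the result was not tested. The log2 fold change of RFP+ cells at 2 weeks was -1.03 ± 0.43 against Confetti (adjusted p = 0.146) and -1.07 ± 0.43 against YFP+ cells (adjusted p = 0.280). Lats2 (chr14:57689662-57758388, minus strand), the kinase, was at 12.7 and 16.5 CPM in Confetti, 15.5 and 18.3 in RFP+ cells at 4 days, 15.3 and 10.4 in YFP+ cells at 4 days, 9.99 and 7.18 in RFP+ cells at 2 weeks and 12.7 and 9.90 in YFP+ cells at 2 weeks. Its log2 fold change was -0.97 ± 0.30 in RFP+ cells between 4 days and 2 weeks (adjusted p = 0.412) and -0.75 ± 0.30 in RFP+ cells at 2 weeks against Confetti (adjusted p = 0.134).

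Read against all genes, the members' counts were as follows. For RFP+ cells at 2 weeks against Confetti, 1 of 10 members was called, beside 5.4% of the 13758 genes tested (743 genes, 476 higher and 267 lower). An unadjusted p below 0.05 was reached by 8 members, with Yap1, Amotl2 and Lats2 lower and the others higher, beside 31.1% of genes. Of the members, 6 did not overlap Confetti upward (Wwtr1, Cyr61, Ctgf, Ankrd1, Ajuba and Axl) and 3 downward (Yap1, Amotl2 and Lats2), beside 73.7% of all genes in either direction. The median log2 fold change of the members was 1.18, with 6 of 10 above 0, against 0.03 and 51.5% for all genes tested. The members and the pathway lists given below were chosen with earlier results of these data known. Their counts and medians beside all genes are therefore a description and no independent comparison.

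Comparing RFP+ with YFP+ cells sets mutant cells against wildtype neighbours. At 4 days edgeR called 0 members, as it called 0% of genes. At an unadjusted p below 0.05 there were 3 members beside 5.76% of genes, and DESeq2 called 1 member beside 113 genes. Of the members, 4 did not overlap upward (Cyr61, Ajuba, Lats2 and Axl) and 1 downward (Amotl2), beside 31.9% of all genes. At 2 weeks edgeR called 0 members beside 0.00727% of genes (1 gene). At an unadjusted p below 0.05 there were 2 members beside 16.4% of genes, and DESeq2 called 0 members beside 464 genes. At this time 5 members did not overlap upward (Tead1, Ctgf, Ankrd1, Ajuba and Axl) and 1 downward (Amotl2), beside 53.3% of all genes. Over both times edgeR called 0 members and 0% of 12827 genes. An unadjusted p below 0.05 was reached by 5 members beside 21.5% of genes, and DESeq2 called 3 members beside 1260 genes. Leaving out replicate 1 of RFP+ cells at 4 days, the mostly AT2-like library, gave 2 members beside 199 of 13623 genes at 4 days and 3 members beside 1478 of 13117 genes over both times. The interaction of colour and time gave 0 members and 0% of genes, with 0 members beside 1.505% of genes below an unadjusted p of 0.05, and 0 members and 0 genes by DESeq2.

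The remaining comparisons gave few calls. RFP+ cells at 4 days against Confetti gave 0 members and 0% of genes with edgeR, 4 members beside 8.84% of genes below an unadjusted p of 0.05, and 3 members beside 262 genes with DESeq2. YFP+ cells at 2 weeks against Confetti gave 0 members beside 0.0218% of genes, 2 members beside 5.63% of genes below an unadjusted p of 0.05, and 1 member beside 103 genes with DESeq2. In that comparison 5 members did not overlap upward (Wwtr1, Ctgf, Ankrd1, Ajuba and Axl) and 2 downward (Yap1 and Tead1), beside 52.1% of all genes. YFP+ cells at 4 days against Confetti gave 0 members beside 0.0291% of genes, 0 members beside 1.80% of genes below an unadjusted p of 0.05, and 0 members beside 12 genes with DESeq2. Between the times, edgeR called 0 members and 0% of genes in either colour, with 2 members beside 11.1% of genes in RFP+ cells and 0 members beside 1.66% of genes in YFP+ cells below an unadjusted p of 0.05. DESeq2 called 0 members there, beside 111 and 17 genes. Comparisons with Confetti share those libraries and are not independent.

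**Figure D2:**
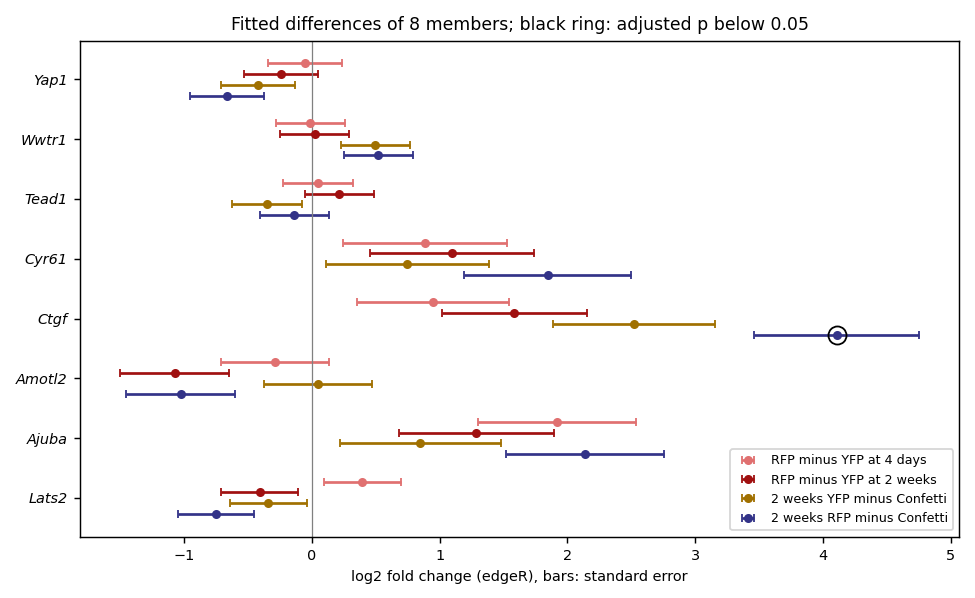
Log2 fold changes (x axis) of 8 members, Ankrd1 and Axl left out for their counts near 0, with standard errors as bars, for RFP+ against YFP+ cells at 4 days and 2 weeks and for each colour at 2 weeks against Confetti. The ring marks Ctgf in RFP+ cells at 2 weeks against Confetti, at 4.11, the only value shown that passed the adjusted threshold of 0.05.

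Other genes of the pathway were read from lists of upstream kinases and scaffolds, of TEAD factors and cofactors, and of further conserved targets. In RFP+ cells at 2 weeks against Confetti, where 5.4% of all genes were called and 31.1% were below an unadjusted p of 0.05, 0 of 19 tested kinases and scaffolds were called (4 below an unadjusted p of 0.05), with a median log2 fold change of -0.20. Of 4 tested TEAD factors and cofactors 1 rose and 0 fell (2 below an unadjusted p of 0.05), with a median of 0.78. The riser was Tead2, another DNA-binding partner of YAP, at 0.81 and 0.40 CPM in Confetti and 2.59 and 2.37 in RFP+ cells at 2 weeks (log2 fold change 2.11 ± 0.50, adjusted p = 0.0497). Of 13 tested further targets 2 rose and 0 fell (6 below an unadjusted p of 0.05), with a median of 0.40. Asap1, a GTPase-activating protein of the ARF family, was at 1.37 and 0.81 CPM in Confetti and 5.78 and 7.71 in RFP+ cells at 2 weeks (log2 fold change 2.67 ± 0.55, adjusted p = 0.0443). Nt5e, which encodes the ectonucleotidase CD73, had 2 and 1 UMIs in Confetti and reached 31.6 and 61.1 CPM in RFP+ cells at 2 weeks (adjusted p = 0.0442). These calls lay near the threshold and were lost without either Confetti library or either RFP+ library of 2 weeks. Adjusted p without Confetti RFP+ or YFP+ and without replicate 1 or 2 of RFP+ cells at 2 weeks was 0.118, 0.231, 0.105 and 0.216 for Tead2, 0.116, 0.184, 0.0651 and 0.213 for Asap1, and 0.122, 0.181, 0.0598 and 0.190 for Nt5e. Without the cluster led by Gzme it was 0.0669 for each of the 3. None of these genes was called in another comparison.

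Within the libraries, the members were unevenly spread over cell states. States are clusters named from markers: AT2-like, primed AT2-like (Lcn2, Lrg1, Il33), DATP-like (Krt8, Cldn4, Itga2, Krt19; damage-associated transient progenitors, cells between the AT2 and AT1 fates), cycling and an unnamed cluster led by Meg3 and Kng2. Of the primed AT2-like cells, 3270 are in a cluster led by Hspa1b, Hspb1 and Hspa1a beside the markers Retnla and Il33, and 1762 in a cluster led by Pglyrp1, Dnajb1, the marker Retnla and Hspa1b, with Egr1 and Cyr61 itself among its 10 leading genes. Of the DATP-like cells, 389 are in a cluster led by Gzme, Spp1 and the mast cell protease genes Mcpt8, Mcpt2 and Mcpt1. It scored 1.91 for the DATP list against 1.72 for a list of the study's Cd177 mixed state, and the like cluster of the finer clustering stayed unnamed. The unnamed cluster led by Meg3 and Kng2 scored highest for the Cd177 mixed list (0.877), with too few of its markers detected for that name. Its like cluster of the finer clustering was named Cd177 mixed (0.984). The clusters were made from the expression of these same cells, so these levels are a description with no test. DATP-like cells made up 36.9% of cells in replicate 2 of RFP+ cells at 4 days and 21.5% and 37.7% in RFP+ cells at 2 weeks, against 0.0253% to 2.88% in the other 7 libraries. In each of these 3 libraries, 7 members were highest in DATP-like cells (Wwtr1, Tead1, Ctgf, Ankrd1, Ajuba, Lats2 and Axl), and 5 with a finer clustering, which left out Ctgf and Axl. Without the cluster led by Gzme there were 6, which left out Ctgf. The same count was not made over all genes, so these counts do not set the members apart from other genes.

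Ankrd1 was nearly restricted to DATP-like cells, which held 100% of its 118 UMIs, 99.2% of 749 and 90.3% of 631 in the 3 libraries. Its DATP-like level was 36.1, 44.0 and 40.5 unscaled CPM. Few cells carried it: 9, 16 and 15 cells held 50% of its UMIs, with up to 59 UMIs in a cell. In YFP+ cells at 2 weeks, DATP-like cells held 73.9% of 23 and 100% of 22 UMIs while making up 0.687% and 2.88% of the cells. Axl was distributed alike, with 96.6%, 93.5% and 88.6% of its UMIs in DATP-like cells, and in replicate 1 of RFP+ cells at 4 days those cells held 91.7% of its 12 UMIs at 1.18% of the cells.

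Ajuba and Ctgf were enriched in the same state with more UMIs outside it. DATP-like cells held 87.8%, 62.8% and 69.1% of Ajuba and 73.7%, 72.5% and 73.9% of Ctgf UMIs. The Ctgf level in DATP-like cells was 4.3 unscaled CPM at 4 days and 55.0 and 33.1 at 2 weeks, so at 4 days the state was present with little Ctgf. In replicate 1 at 2 weeks, the cluster led by Gzme held 82.6% of the DATP-like Ctgf UMIs at 41.3% of the DATP-like cells. The other DATP-like cells of that library had Ctgf at 16.6 unscaled CPM, against 18.6 in the unnamed cluster and 4.99 in AT2-like cells. In replicate 1 of RFP+ cells at 4 days, AT2-like cells held 86.4% of the 125 Ctgf UMIs at 89.8% of the cells, and DATP-like cells held 0% at 1.18% of the cells. Lats2 in DATP-like cells was at 30.9, 16.1 and 10.6 unscaled CPM in the 3 libraries.

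DATP-like cells held 44.3%, 27.7% and 56.5% of Cyr61 UMIs in the 3 libraries, the last of these shares near those of Wwtr1 (52.4%), Tead1 (55.1%) and Lats2 (52.3%) in that library. AT2-like cells of replicate 1 at 2 weeks had Cyr61 at 245 (RFP+) and 186 (YFP+) unscaled CPM, against 250 in the DATP-like cells of the same RFP+ library and 138 there without the cluster led by Gzme. Amotl2 was lowest in DATP-like cells, at 34.2, 22.4 and 16.2 unscaled CPM, where they held 22.9%, 8.89% and 21.7% of its UMIs. Yap1 lay near its share of cells at 2 weeks (27.5% and 38.1%) and above it in replicate 2 at 4 days (57.0%), whereas DATP-like levels of Wwtr1 (60.8, 47.7 and 59.9 unscaled CPM) and Tead1 (50.1, 47.6 and 49.97) were alike in the 3 libraries.

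**Figure D3:**
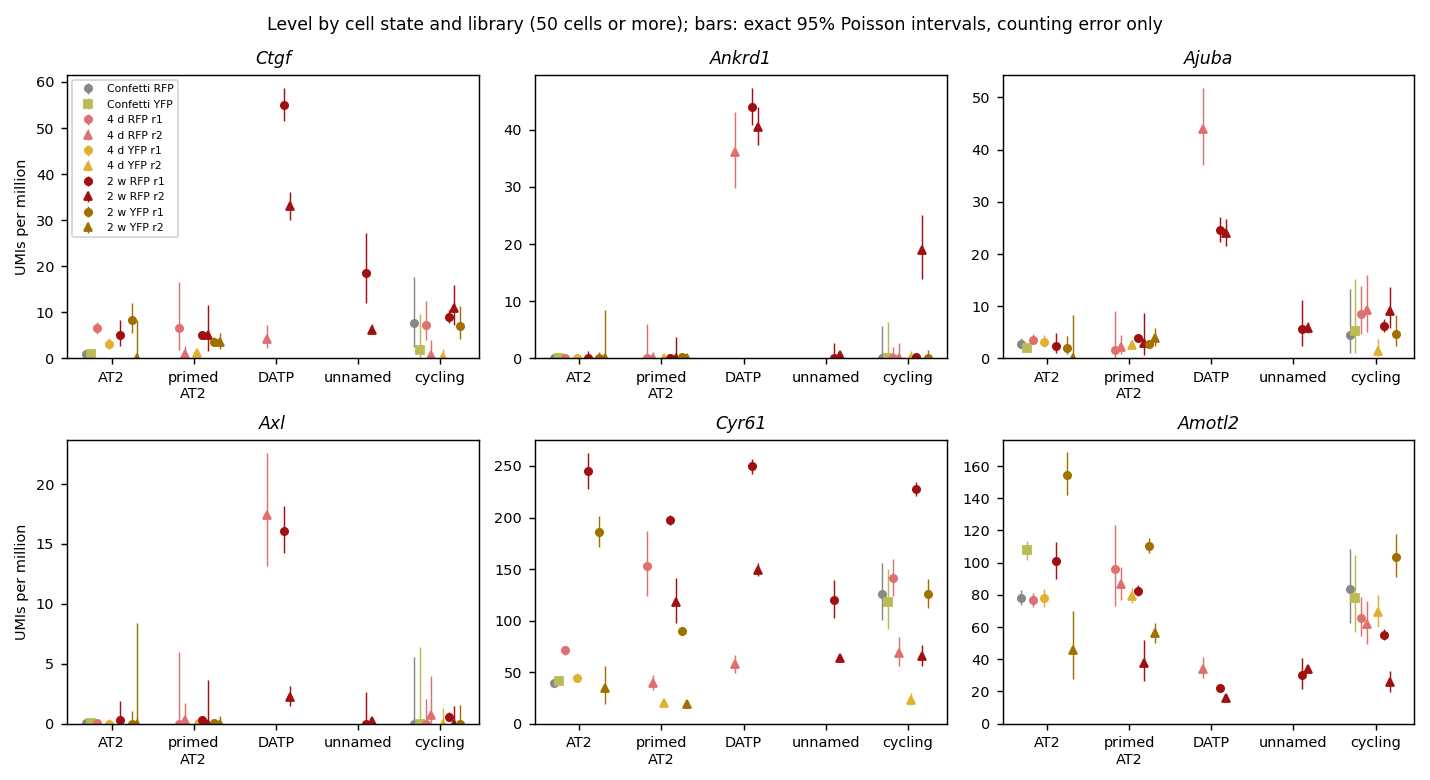
Unscaled CPM of 6 members by cell state and library, for states with at least 50 cells, with exact 95% Poisson intervals that cover counting error only. Ankrd1 reaches 36.1 to 44.0 unscaled CPM in DATP-like cells, and Amotl2 is lower there than in the other states of the same libraries.

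Shares of cells with a UMI follow depth, and the RFP+ libraries at 2 weeks were the deepest, with a median of 15810.0 and 13381.5 UMIs per alveolar cell against 3251 to 6707.5 in the others. Cells were therefore thinned to 2000 UMIs, which kept 29555 of the 29573 alveolar cells. With all UMIs, 9 members had a higher share in both RFP+ libraries at 2 weeks than in both Confetti libraries, beside 88.6% of the 13758 tested genes, and after thinning 6 did (Wwtr1, Cyr61, Ctgf, Ankrd1, Ajuba and Axl), beside 35.4%. Cells with Ctgf were 0.21% and 0.08% of thinned cells in Confetti, 1.29% and 0.28% in RFP+ cells at 4 days, 0.65% and 0.24% in YFP+ cells at 4 days, 2.47% and 2.74% in RFP+ cells at 2 weeks and 0.90% and 0.79% in YFP+ cells at 2 weeks. Unthinned, the RFP+ share at 2 weeks was 9.11% and 8.62%, and that of Confetti 0.45% and 0.28%. Cells with Cyr61 were 5.92% and 6.19% in Confetti and 23.8% and 11.6% in RFP+ cells at 2 weeks after thinning. Cells with Ankrd1 were 1.68% in replicate 2 of RFP+ cells at 4 days and 1.06% and 1.70% in RFP+ cells at 2 weeks. Cells with Axl were 1.12% in the same 4 day library and 0.52% and 0.25% in RFP+ cells at 2 weeks, against 0% and 0.03% in Confetti. Cells with Ajuba were 1.10% and 3.29% in RFP+ cells at 4 days and 1.51% and 2.92% at 2 weeks, against 0.66% and 0.41% in Confetti.

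The cells set aside give the background for free RNA. Their median depth was 7089 UMIs in immune and 3469 in mesenchymal cells, against 5557 in alveolar cells. After the same thinning, 38.0% of immune cells and 0.169% of alveolar cells had an Axl UMI, and 30.8% of mesenchymal cells had a Ctgf UMI. Ctgf was at 0.34 unscaled CPM in immune cells, which should lack it, against 10.3 in alveolar cells, and Cyr61 at 5.98 against 115. Amotl2 and Lats2 were at 341 and 135 unscaled CPM in the 337 endothelial cells.

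**Figure D4:**
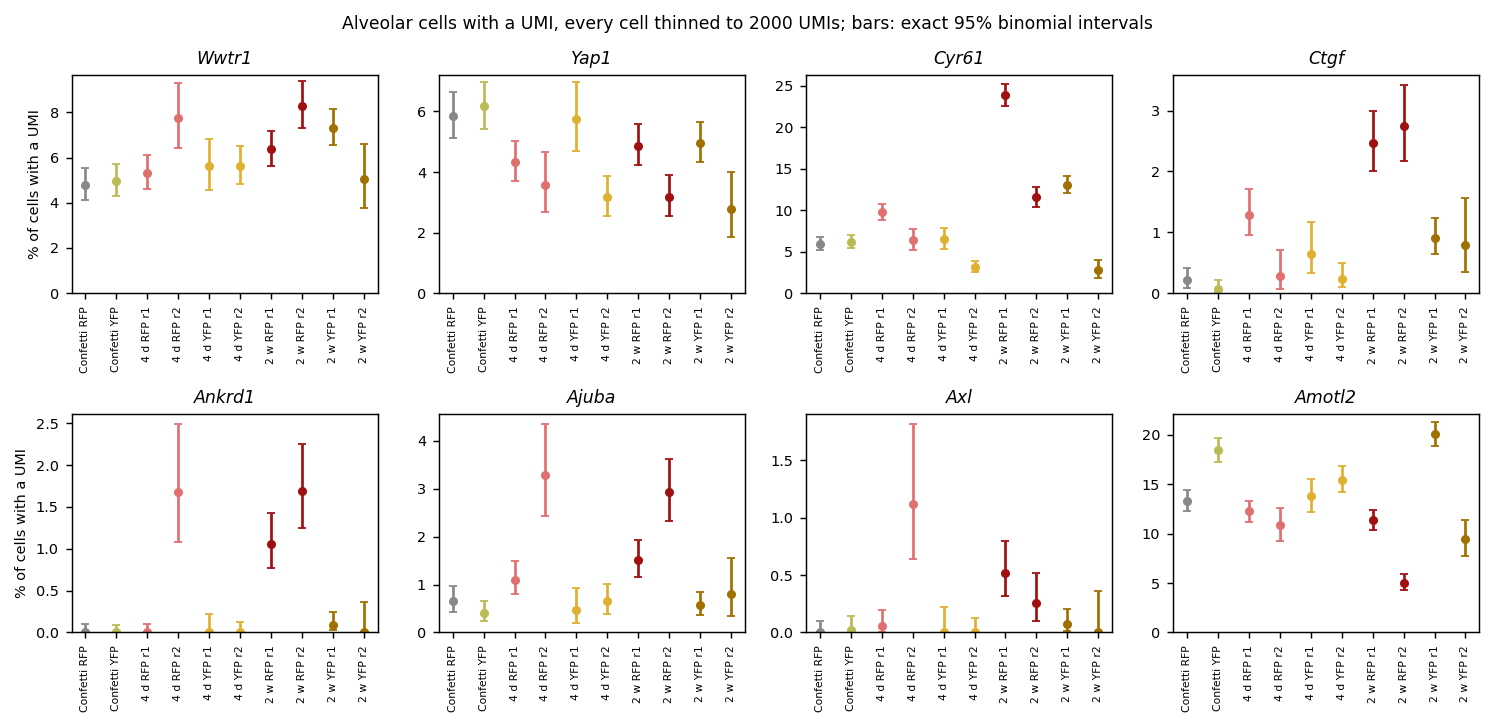
Share of alveolar cells with at least 1 UMI of 8 members per library, after each cell was thinned to 2000 UMIs, with exact 95% binomial intervals that cover counting error only. Ctgf is at 2.47% and 2.74% in RFP+ cells at 2 weeks, above the 8 other libraries.

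The genes closest to each member across the 10 libraries were found by Pearson's r of log2 CPM, as a description over libraries that share groups and depth. Ajuba was closest to Lgals3 (r = 0.992), a galectin, and Ankrd1 to Prkg2 (r = 0.987). Cyr61 was closest to Prkab1 (r = 0.980), followed by the immediate-early gene Junb (r = 0.967). Wwtr1 was closest to Ifit1 (r = 0.917), Irf9 (r = 0.916) and Oasl1 (r = 0.903), which are interferon-response genes. Ctgf was closest to Gm35082 (r = 0.960), Axl to Smn1 (r = 0.953), Yap1 to Gprasp2 (r = 0.982), Tead1 to Rsbn1 (r = 0.955), Amotl2 to Atl2 (r = 0.984) and Lats2 to 1810007D17Rik (r = 0.986). Among the members themselves, the highest r was that of Ankrd1 with Ajuba (0.859), and the lowest that of Yap1 with Wwtr1 (-0.77).

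**Figure D5:**
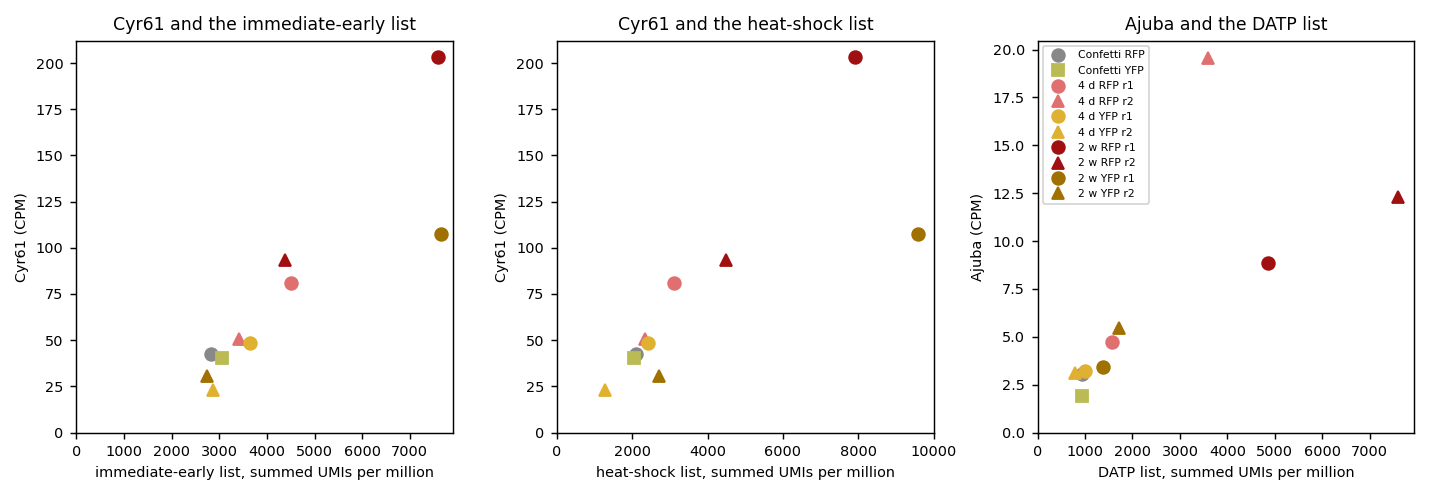
Levels of Cyr61 beside the immediate-early and heat-shock lists, and of Ajuba beside the DATP list, with member CPM on the y axes, the summed unscaled CPM of each list on the x axes and 1 point per library. The replicate 1 libraries of 2 weeks are highest for the heat-shock list (7911 and 9590 unscaled CPM), and RFP+ cells at 2 weeks are highest for the DATP list (4855 and 7601).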

How the data were processed

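UMI count matrices per library were deposited by the authors (10x Genomics libraries, GRCm38, Cell Ranger 5.0.1 per the file headers). These counts are raw whole numbers per gene and barcode. Cells with under 1000 genes, over 50000 UMIs or over 15% mitochondrial UMIs were removed with scanpy 1.11.5. The rest were clustered over all libraries (5000 variable genes, 30 components, 20 neighbours, Louvain resolution 0.8), and clusters were named from marker lists. Immune, endothelial, mesenchymal and airway clusters were set aside. Doublets were not removed in the reported values, and a run without predicted doublets was an alternative.

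UMIs of alveolar cells were summed per library and tested with edgeR 4.0.16 (R 4.3.3; quasi-likelihood, TMM, filterByExpr), with Benjamini-Hochberg adjustment over all genes and a threshold of 0.05. Each group was a coefficient in a fit of all 10 libraries, with each Confetti colour a group of 1 library. The shared estimate of the spread therefore came from the pairs of Red2Kras libraries alone. The fit over both times used the 8 Red2Kras libraries with time as covariate. Confetti was the mean of its 2 libraries, which are colours of 1 preparation. The study's methods state that libraries were prepared over 2 days, with 2 preparations for each Red2Kras time, but the labels do not tie libraries to days or animals. No term for preparation day could be fitted, and the replicate number was fitted as a block only among the Red2Kras libraries. Preparation and genotype cannot be told apart against Confetti. The p-values measure the spread between replicate Red2Kras libraries, and none between Confetti libraries or mice. Intervals are exact 95% ones and cover counting error only, and the floor is 3 counts. The test was checked on simulated counts. Alternatives were DESeq2 1.42.0, RLE scaling, no count filter, other cell sets, thinning to 2000 UMIs, resolution 1.5, a replicate block, leaving out each library and, added after seeing the data, leaving out 1 cluster led by Gzme. All members are named, other pathway genes where they passed the threshold, and the 3 genes most like each member were computed. The members and lists were chosen with earlier results of these data known.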

Additional observations from a re-analysis of the deposited data

Results flagged for a closer look

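Ajuba in replicate 2 of YFP+ cells at 2 weeks, at 5.45 CPM, lay far from the other 3 YFP+ Red2Kras libraries, which were between 3.13 and 3.42 CPM. Its gap to the nearest library was 0.877 of the range, above Dixon's 95% critical value for 4 samples. It was the only one of 20 such groups of 4 to pass, and chance passes about 1 in 20. DATP-like cells held 27.3% of the Ajuba UMIs of this library at 2.88% of its cells.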

How the results depend on the processing

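Each Red2Kras group had 2 libraries and Confetti had 1 of each colour. For RFP+ cells at 2 weeks against Confetti, where 1 member was called, 5 were called with DESeq2, 6 without a count filter, 5 with only the libraries compared, 4 without stress-led clusters, and 0 with all filtered cells, all barcodes, resolution 1.5 or, chosen after seeing the data, without the cluster led by Gzme; leaving out a library gave 0 to 4, beside 1 to 1925 genes. All genes called there were 743, against 2194 with DESeq2, 3232 without a filter, 2431 with only the libraries compared, 1773 without stress-led clusters, 83 at resolution 1.5, 5 without the cluster led by Gzme, 1 with all barcodes and 0 with all filtered cells. In the other comparisons, where 0 members were called, DESeq2 called 1 for RFP+ against YFP+ cells at 4 days, 3 over both times, 3 for RFP+ cells at 4 days against Confetti and 1 for YFP+ cells at 2 weeks against Confetti, beside 113, 1260, 262 and 103 genes. Without a filter the counts were 3, 6, 4 and 2 in that order, 6 for colour at 2 weeks, 2 and 1 for time in RFP+ and YFP+ cells and 1 for the interaction, beside 505, 1942, 814, 535, 1379, 694, 197 and 56 genes. With only the libraries compared, YFP+ cells at 2 weeks against Confetti gave 2, beside 482 genes. Leaving out a library gave 0 to 2 members for colour at 4 days, 0 to 3 over both times and 0 to 2 for RFP+ cells at 4 days against Confetti, beside 0 to 199, 0 to 1478 and 0 to 329 genes. The Ctgf log2 fold change was 2.24 to 4.86 over all settings, and its adjusted p was 0.0359 with RLE, 0.0176 after thinning and 0.0546 at resolution 1.5. Values that turned sign were Tead1 against Confetti (0.0744 after thinning), Axl by colour over both times (adjusted p 0.918 with all filtered cells, 0.924 with all barcodes, 0.981 at resolution 1.5) and Ankrd1 without replicate 2 of RFP+ cells at 4 days. For Ankrd1, adjusted p ranged from 0.0248 to 1 by colour at 4 days and from 0.0163 to 1.00 for RFP+ cells at 4 days against Confetti as libraries were left out. At resolution 1.5 the alveolar cells, unlike those of the report, kept a cluster of 153 cells led by the macrophage genes Chil3, Ccl6, Tyrobp and Fcer1g and classed as cycling by its markers, and Axl in that class reached 322 unscaled CPM in replicate 2 of YFP+ cells at 2 weeks. The other causes were not tested.

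With the replicate number as a block, 2 members (Cyr61, adjusted p = 0.0320, and Ajuba, adjusted p = 0.0428) and 922 genes were called over both times. The numbers were not taken to pair the libraries, because the sources used here tie no number to animals or days. The r of the differences between replicates was 0.453 between colours at 4 days and 0.533 at 2 weeks. Between groups of different times it was 0.0182 to 0.240, which does not bear on a pairing of colours within a time. Such a pairing is thus not excluded, and the tests of colour without the block leave it out. All of these r were above 0, a hint from the data and not from the design, and the numbers also separate the libraries by Xist.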

Other observations

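The ratio of Wwtr1 to Yap1 UMIs, which compares libraries and not the transcript numbers of the genes, was 0.8285 and 0.8284 in Confetti. It was 1.06 and 1.63 in RFP+ cells at 4 days, 0.994 and 1.73 in YFP+ cells at 4 days, 1.39 and 2.56 in RFP+ cells at 2 weeks and 1.53 and 1.61 in YFP+ cells at 2 weeks. Confetti thus had the lowest ratios, and replicate 2 had the higher ratio in all 4 Red2Kras groups.

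In RFP+ cells at 2 weeks, the pairs of members looked at shared cells more often than not sharing would give by their shares in the other cells, with depth shared by both readouts. There, 72.9% and 58.6% of cells with Ctgf also had Cyr61, against 52.3% and 28.3% of cells without Ctgf. Of cells with Ankrd1, 32.2% and 28.2% had Ctgf, against 8.07% and 7.45% of the other cells, and 39.7% and 28.8% had Ajuba, against 10.9% and 13.3%. Most Ankrd1 cells thus lacked a Ctgf UMI. Of cells with Yap1, 44.6% and 46.5% had Wwtr1, against 35.5% and 38.9% of the other cells. Other libraries did not all go this way. In YFP+ cells at 4 days, 6.67% of 15 cells with Ctgf had Cyr61 in replicate 2, against 8.36% of the others. In replicate 1, 16.3% of cells with Yap1 had Wwtr1, against 16.4%.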
